A study of Schizosaccharomyces pombe with 9 samples.

Results

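The genes nearest the ends of fission yeast (*Schizosaccharomyces pombe*) chromosomes I and II were read out of RNA-seq counts of 3 strains. They were taken by systematic ID, as the genes of 10 clones of the genome sequence that lie at those ends: SPAC212, SPAC977, SPAC186 and SPAC750 on chromosome I, and SPBC1348, SPBPB21E7, SPBPB10D8, SPBC359, SPBPB2B2 and SPBCPT2R1 on chromosome II. This rule gave 110 of the 6988 genes in the count table, 97 annotated as protein coding and 13 as pseudogenes in RefSeq. The 3 strains were the wild type (WT), *ecl3*Δ (*ecl3*Δ::kanMX) and *ecl123*Δ (*ecl1*Δ::hygMX *ecl2*Δ::natMX *ecl3*Δ::kanMX), each with 3 biological replicates. All carried the mating type h− and were grown to log phase in YES medium at 30 °C, and each genotype was represented by 1 lab strain. The *ecl* genes encode small proteins first described for their effect on chronological lifespan. The deposited counts summed to 23254907 to 34871124 per library. The *ecl3* gene itself had counts of 23, 15 and 42 in the WT, 0, 0 and 0 in the *ecl3*Δ cultures, and 0, 0 and 1 in *ecl123*Δ.

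Subtelomeres are the stretches of chromosome next to the telomere repeats. In fission yeast they are packaged in heterochromatin spread from the telomere and from internal sequences, and this packaging keeps most of the genes in them silent during vegetative growth. They hold families of near-identical copies shared between chromosome ends, among them the RecQ-type helicase genes *tlh1* and *tlh2*, together with single-copy genes for cell-surface glycoproteins, permeases, transporters and enzymes of sugar and amino acid metabolism.

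The clones followed each other from the chromosome ends inward. SPAC212 held the 12 outermost genes of the left end of chromosome I and SPAC977 the next 18, genes 13 to 30 from that end. SPAC750 held the 8 outermost genes of the right end of chromosome I and SPAC186 the 9 after them. On chromosome II, SPBC1348 held the 14 outermost genes of the left end, followed after a gap by SPBPB21E7, SPBPB10D8 and SPBC359 as genes 20 to 42. SPBCPT2R1 held the 9 outermost genes of the right end and SPBPB2B2 the 17 after them, genes 10 to 26.

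Much of this sequence cannot be assigned to 1 gene by a short read taken without its paired mate. Of the 110 genes, 63 had more than 50% of their 51-base exon windows, the length of 1 read, repeated elsewhere in the genome. A further 43 had no repeated window at all, so that the genes fell mostly into copies and unique genes. The low-count filter was passed by 55 of the 110 genes, by 39 of the 47 less repeated genes and by 16 of the 63 repeated ones. Each of the 55 genes that did not pass held at most 72 counts, summed over the 9 libraries. A count of 0 in all 9 libraries was found for 14 genes, among them a transporter gene of SPAC750 and a pair of transporter genes of SPBPB10D8. A low count of such a copy does not show that its transcript was absent.

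**Figure D1:**
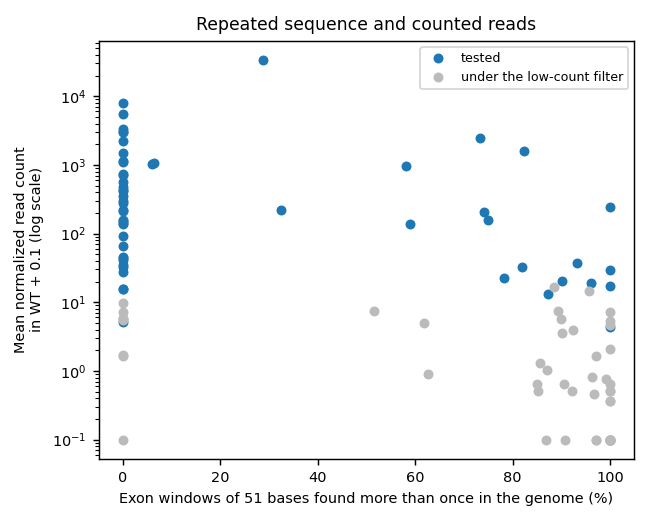
Each point is 1 of the 110 genes, plotted by the percent of its 51-base exon windows that occur more than once in the genome (x axis) and the WT mean of its normalized read count plus 0.1 on a log scale (y axis), blue where it passed the low-count filter. The 43 genes without repeated windows stand at the left edge and include most genes with high counts, and the genes with over 50% of windows repeated are mostly below the filter.

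The tested genes were mostly weakly expressed. Their median level in the WT was 5.41 CPM per kb of exon, against 37.0 CPM per kb over all coding genes and pseudogenes tested, and 9 of the 55 lay above that second value. One gene dominated the sum: SPAC977.14c, annotated as an aldo-keto reductase family protein, gave 39.6% to 45.1% of all counts of the 110 genes in every library. With SPBPB21E7.08, *aes1* (SPBPB21E7.07) and *pan5* (SPBPB2B2.09c, a 2-dehydropantoate 2-reductase of pantothenate synthesis) it gave 57.0% to 67.0%. The 110 genes together took 0.261%, 0.276% and 0.279% of the counts in the WT libraries. In the *ecl3*Δ libraries the share was 0.211%, 0.307% and 0.224%, and in the *ecl123*Δ libraries 0.213%, 0.212% and 0.209%. The *ecl123*Δ libraries and *ecl3*Δ replicates 1 and 3 were thus below all WT libraries, while *ecl3*Δ replicate 2 was above them. This share follows the few genes with most counts. The summed normalized read count was 76632 in the WT and 60588 in *ecl123*Δ, and that of SPAC977.14c alone 34023 and 24962 (means, n = 3). By gene, 31 of the 55 tested genes were higher in *ecl123*Δ than in the WT and 24 were lower, with a median log2 difference of 0.11.

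**Figure D2:**
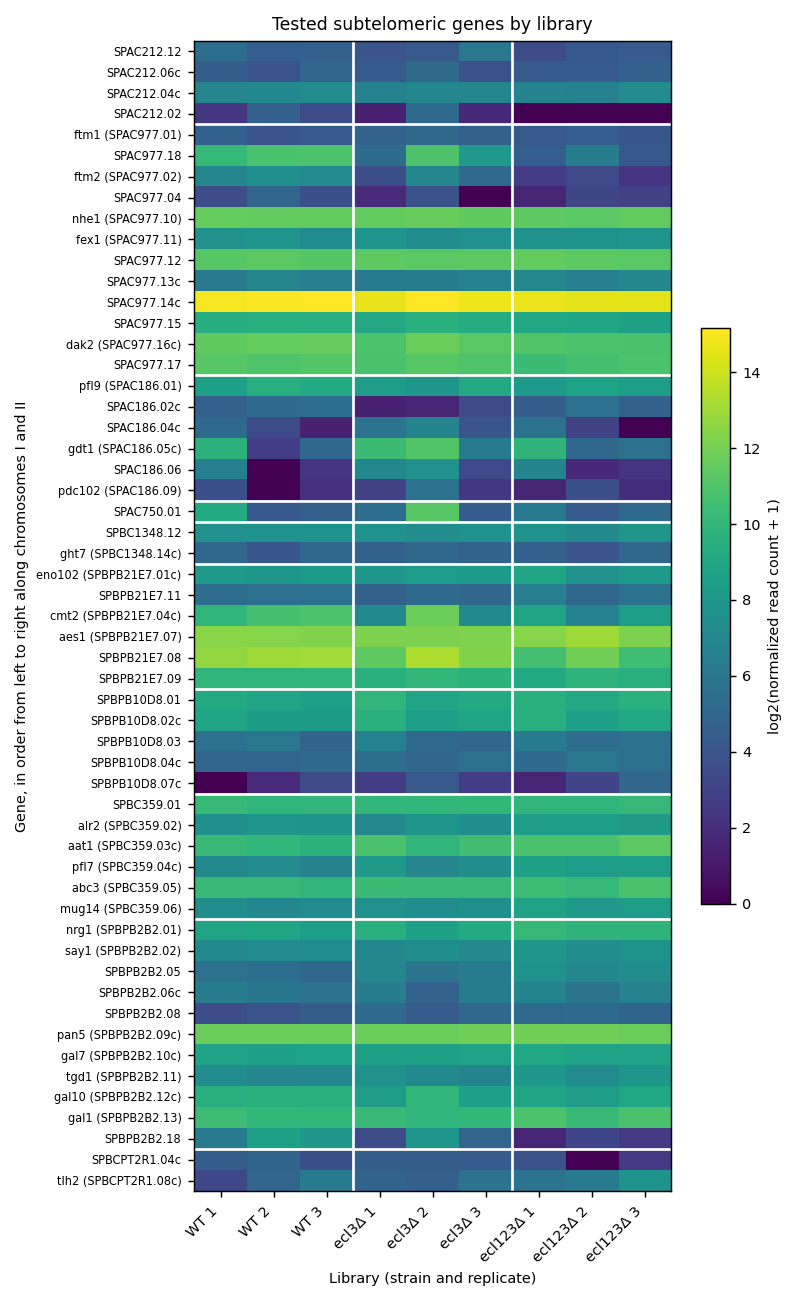
Rows are the 55 tested genes in chromosomal order, with white lines between clones, columns are the 9 libraries with white lines between strains, and the colour is log2(normalized read count + 1). SPAC977.14c is the brightest row, and *gdt1* and SPAC750.01 near the right end of chromosome I change between cultures of 1 strain.

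Against the WT, 3 of the 55 tested genes rose in *ecl123*Δ and 1 fell. A call required an adjusted p of at most 0.05 in the edgeR quasi-likelihood test with Benjamini-Hochberg adjustment over all 6257 genes tested, a 2-fold difference, and 100 or more normalized reads on average in the higher strain. Over all genes tested, 0.288% were called higher and 0.447% lower. Dropping the limits on fold and level gave the same 3 and 1 genes, beside 0.607% and 0.575% of all genes. By the plainer criterion that all 3 *ecl123*Δ libraries lay beyond all 3 WT libraries, 8 genes were higher and 14 were lower, beside 12.4% and 13.6% of all genes. With a 2-fold difference and the limit on level added, 4 were higher and 5 lower, beside 0.591% and 1.6%. At an unadjusted p under 0.05, 11 were higher and 11 lower, beside 10.2% and 9.7%. The replicates are separate biological samples by the labels, and with 3 against 3 an exact permutation test could not give a two-sided p under 0.1. In bulk RNA, fewer cells expressing a gene and less RNA per cell cannot be told apart.

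The calls depended on single libraries. None was made by edgeR without any 1 of the 3 WT libraries, without *ecl3*Δ replicate 3 or without *ecl123*Δ replicate 1. Without *ecl3*Δ replicate 1 there were 8 calls and without *ecl3*Δ replicate 2 there were 9. Without *ecl123*Δ replicate 3 the call of *ftm2* was lost and 3 remained. DESeq2 on the same counts called 8 genes, namely the same 4 with *pfl7*, SPAC977.18, SPBPB2B2.18 and SPBPB21E7.08. The share of all genes called under these alternatives was not counted. Whether the genes of these clones gained calls beyond that share is therefore not known. The direction of the 4 genes was the same under all 16 alternatives.

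The 3 genes that rose are annotated as a permease, an amidotransferase and an adducin. *nrg1* (SPBPB2B2.01), annotated as an amino-acid permease, lies 26 genes from the right end of chromosome II. Its normalized read counts were 456, 482 and 339 in the WT, 741, 404 and 604 in the *ecl3*Δ cultures, and 1112, 916 and 938 in *ecl123*Δ. The *ecl123*Δ libraries were all above those of the other strains, and 1 *ecl3*Δ culture lay within the WT range. Over the WT, the log2 fold change in *ecl123*Δ was 1.22, with a standard error of 0.21 and an edgeR adjusted p of 0.0423.

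SPBPB2B2.05, on the same clone, is annotated as a class I glutamine amidotransferase, an enzyme type that takes the amide nitrogen of glutamine. It was the most strongly raised of the called genes, with 47.6, 43.9 and 33.6 normalized reads in the WT, 129, 56.5 and 72.0 in the *ecl3*Δ cultures and 208, 133 and 179 in *ecl123*Δ. The 3 strains did not overlap, with *ecl3*Δ between the others. Against the WT it was 4.18-fold higher in *ecl123*Δ (standard error 0.33 on the log2 scale, edgeR adjusted p = 0.034). In *ecl3*Δ its log2 difference to the WT was 1.06 (standard error 0.34, adjusted p = 1.00).

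*mug14* (SPBC359.06) is annotated as an adducin, a name used for proteins of the actin cytoskeleton, and belongs to a class of genes induced in meiosis. Whether its own protein has such a role was not examined. Its normalized read counts were 169, 133 and 155 in the WT, 198, 164 and 198 in the *ecl3*Δ cultures, and 423, 290 and 329 in *ecl123*Δ. The *ecl123*Δ libraries stood above all others, and the log2 fold change over the WT was 1.19, with a standard error of 0.18 and an edgeR adjusted p of 0.0336. It is the innermost gene of its clone, 42 genes from the left end of chromosome II.

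Other genes of SPBC359 were not called. *pfl7* (SPBC359.04c) encodes a DIPSY family glycoprotein, a kind of cell-wall protein linked to flocculation. It had 150, 158 and 110 normalized reads in the WT, 286, 119 and 184 in the *ecl3*Δ cultures and 407, 315 and 348 in *ecl123*Δ, a log2 difference of 1.36 (standard error 0.29) with an edgeR adjusted p of 0.0588. The amino acid permease gene *aat1* (SPBC359.03c) had 1238, 1040 and 880 in the WT and 1777, 1772 and 2592 in *ecl123*Δ, and its *ecl3*Δ cultures had 1812, 983 and 1445. Its *ecl123*Δ libraries lay above the WT, and its log2 difference of 0.96 (standard error 0.23) had an edgeR adjusted p of 0.075. The alanine racemase gene *alr2*, chosen after its values were seen, was also apart from the WT, with 192, 246 and 227 against 366, 345 and 289. The permease gene SPBC359.01, with a log2 difference of 0.01, and the transporter gene *abc3*, with 0.37 (edgeR adjusted p = 0.26), overlapped the WT, and both were likewise named after their values were seen. The 6 genes of the clone had log2 differences from 0.01 to 1.36, with a median of 0.77 against 0.11 over the 55 genes and 0.00 over all genes tested. A rise of most genes was not particular to this clone. In SPBPB10D8, 5 of 5 tested genes were higher (median 0.59), and in SPBPB2B2 9 were higher and 2 lower (median 0.49). The median of SPAC186 was 0.09, and those of the remaining clones were negative. Summed over the clone, the normalized read count was 3701 ± 354 (SD, n = 3) in the WT, 4306 ± 458 in the *ecl3*Δ cultures and 5540 ± 870 in *ecl123*Δ.

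**Figure D3:**
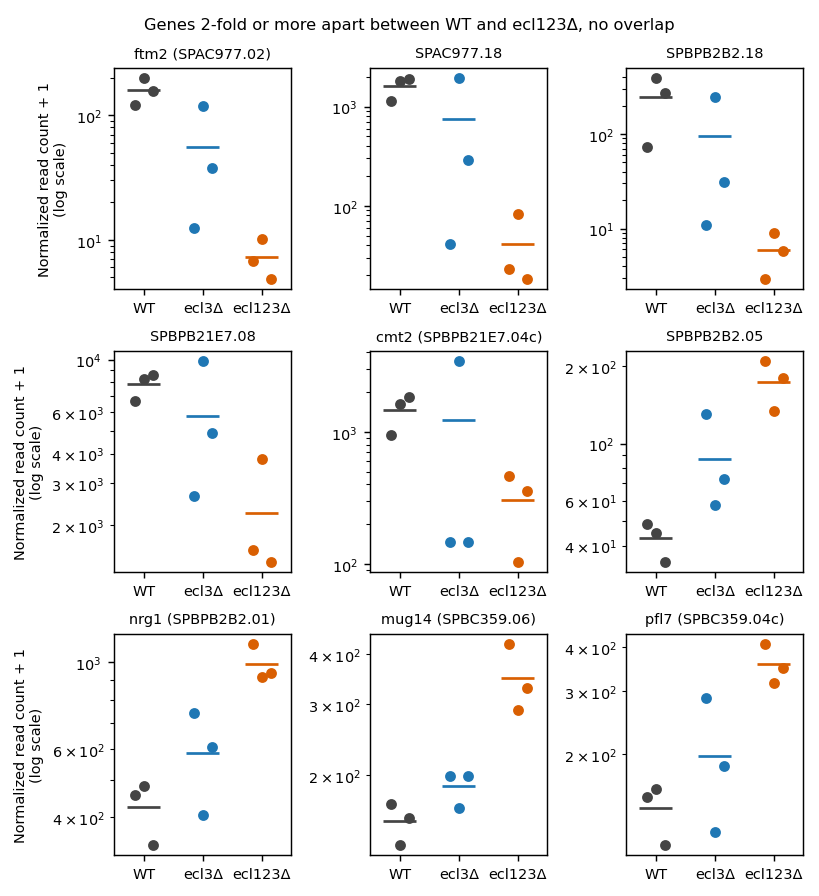
Points are single libraries and bars are strain means of the normalized read count plus 1 (y axis, log scale, a different range in each panel) for the 9 genes at least 2-fold apart between the WT and *ecl123*Δ without overlap. In *ecl3*Δ (blue), the replicates are drawn in the order 1 to 3 from left to right, and the middle point, replicate 2, lies inside the WT range or beyond it on the side away from *ecl123*Δ in 7 of the 9 panels.

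The gene that fell was *ftm2* (SPAC977.02), 1 of a family of subtelomeric genes for small proteins with transmembrane helices. Its normalized read counts were 120, 198 and 155 in the WT, 11.5, 117 and 36.6 in the *ecl3*Δ cultures, and 5.81, 9.16 and 3.86 in *ecl123*Δ. All 3 *ecl123*Δ libraries lay below every other library, and *ecl3*Δ replicate 2 lay just under the lowest WT library. The log2 fold change of *ecl123*Δ against the WT was -4.65 (standard error 0.86, edgeR adjusted p = 0.0357). In *ecl3*Δ it was -1.53 (standard error 0.61, adjusted p = 1.00).

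Part of the sequence of *ftm2* is shared with other genes. Of its exon windows, 75.0% were repeated. It shared 65.6% with *ftm6* (SPBC1348.03) of the left end of chromosome II, 53.3% with *ftm3* (SPAC750.04c) of the right end of chromosome I and 46.4% with *ftm7* (SPBPB2B2.17c) of the right end of chromosome II. The protein of *ftm3* was 100% identical to that of *ftm2*, and those of *ftm6* and *ftm7* were 99.31% identical. When the counts of the 4 genes were summed, the log2 fold change was -4.40 with an edgeR adjusted p of 0.0423. *ftm2* carried nearly all of that sum, since *ftm3*, *ftm6* and *ftm7* each had at most 9 counts in a library. Of the other *ftm* genes, *ftm1* (SPAC977.01) had 14.6 to 32.9 normalized reads over the libraries, and *ftm4* and *ftm5* had at most 7 counts.

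A neighbour of *ftm2* on the opposite strand, the uncharacterized gene SPAC977.18, showed a wider gap without a call. It had 1124, 1812 and 1880 normalized reads in the WT, 40.3, 1922 and 290 in the *ecl3*Δ cultures and 22.3, 81.3 and 17.4 in *ecl123*Δ. The WT and *ecl123*Δ did not overlap, while the 3 *ecl3*Δ cultures ran from near the *ecl123*Δ level to above the WT. The log2 difference of *ecl123*Δ was -5.36 (standard error 1.17), and its edgeR adjusted p was 0.0638. SPBPB2B2.18, a gene near the right end of chromosome II whose protein was 87.96% identical to that of SPAC977.18 over 108 residues, gave a like picture. It had 71.3, 388 and 270 normalized reads in the WT, 9.87, 247 and 29.7 in the *ecl3*Δ cultures, and 1.94, 8.02 and 4.83 in *ecl123*Δ, with a log2 difference of -5.62 (standard error 1.48, adjusted p = 0.0678). SPBPB2B2.18 had all of its windows repeated and shared 45.3% of them with SPAC977.18, and held 1013 counts over the 9 libraries. How reads that fit several places were counted is not given in the sources used here, so whether the pair shares reads was not tested. *ftm2* and SPAC977.18 also lie side by side, and whether the counting used the strand of the reads is not given in the sources used here.

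A pair of unique genes on SPBPB21E7 was lower without a call. SPBPB21E7.08, which RefSeq gives no product, had 6705, 8304 and 8627 normalized reads in the WT, 2657, 9830 and 4895 in the *ecl3*Δ cultures and 1561, 3797 and 1393 in *ecl123*Δ. Its log2 difference in *ecl123*Δ was -1.81 (standard error 0.47, edgeR adjusted p = 0.0948). *cmt2* (SPBPB21E7.04c), a catechol O-methyltransferase gene, had 947, 1618 and 1834 in the WT, 145, 3411 and 145 in the *ecl3*Δ cultures and 461, 103 and 354 in *ecl123*Δ. The WT and *ecl123*Δ did not overlap, but the *ecl3*Δ cultures spanned both, and the log2 difference of -2.25 had a standard error of 1.06 and an adjusted p of 0.288. Its relative elsewhere in the genome, *cmt1*, whose protein was 51.79% identical, had a log2 difference of -1.17 (standard error 0.41, adjusted p = 0.162).

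The 4 innermost genes of SPAC977, genes 27 to 30 from the left end of chromosome I, formed a run that was lower in every *ecl123*Δ library than in every WT library. The reductase gene SPAC977.14c had 32050, 34886 and 35132 normalized reads in the WT, 25980, 36533 and 28290 in the *ecl3*Δ cultures and 26923, 23904 and 24058 in *ecl123*Δ. Its log2 difference of -0.45 (standard error 0.13) had an edgeR adjusted p of 0.103. The other 3 genes of the run were chosen after their values were seen. SPAC977.15, of the dienelactone hydrolase family, had a log2 difference of -0.59 (standard error 0.16, edgeR adjusted p = 0.0956). Its *ecl3*Δ cultures had 558, 802 and 655 normalized reads against 690, 731 and 716 in the WT. The dihydroxyacetone kinase gene *dak2* (SPAC977.16c) had 2795, 3109 and 3128 normalized reads in the WT and 2090, 1876 and 1799 in *ecl123*Δ. The *ecl3*Δ cultures had 1850, 3295 and 2446, so that replicates 1 and 3 were also below every WT library. For *dak2* the log2 difference in *ecl123*Δ was -0.65 (standard error 0.17, edgeR adjusted p = 0.0948). For SPAC977.17, a gene of the MIP family of water and glycerol channels, the log2 difference was -0.46 (standard error 0.15, edgeR adjusted p = 0.129). Its *ecl3*Δ cultures had 1798, 2418 and 2028 normalized reads against 2337, 2012 and 2281 in the WT. None of the 4 was called, and 13.6% of all genes tested were lower in *ecl123*Δ without overlap. Over the 12 tested genes of SPAC977 the median was -0.45, with 9 lower and 3 higher.

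**Figure D4:**
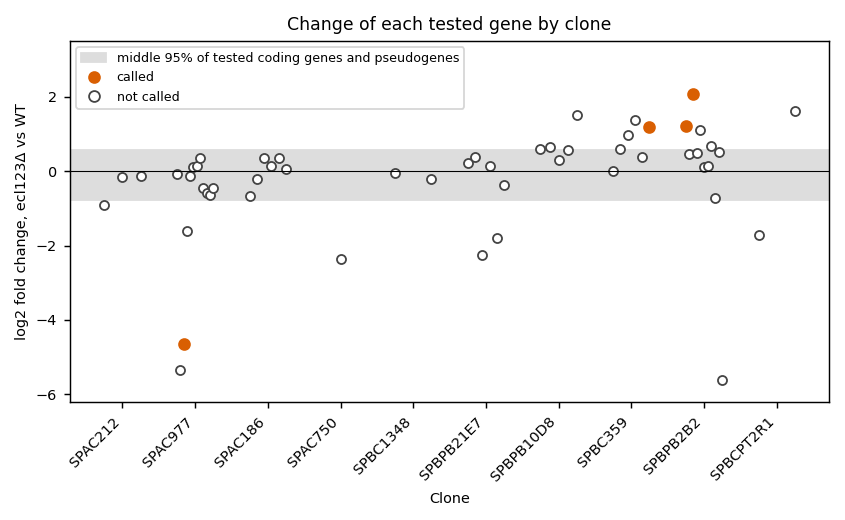
Each point is the log2 fold change of *ecl123*Δ against the WT (y axis) of 1 of 54 tested genes, by clone (x axis), filled where it was called, and the grey band holds the middle 95% of the tested coding genes and pseudogenes, from -0.78 to 0.55. Outside the band lie 22 of the 54 genes, and the 4 filled points are *ftm2* below it and *mug14*, *nrg1* and SPBPB2B2.05 above it. The genes were not matched by level to those of the band: the median WT level was 5.41 against 37.0 CPM per kb. How far low counts or the spread between cultures put genes outside the band was not tested. SPAC212.02 is left out because its count was 0 in *ecl123*Δ.

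SPBPB2B2 holds the galactose genes of fission yeast, which encode the enzymes of the Leloir pathway of galactose breakdown. The galactokinase gene *gal1* (SPBPB2B2.13) had 1326, 1064 and 1044 normalized reads in the WT, 1201, 1015 and 1063 in the *ecl3*Δ cultures and 1836, 1259 and 1761 in *ecl123*Δ, and the WT and *ecl123*Δ overlapped. *gal10* (SPBPB2B2.12c), for the epimerase, had 710, 771 and 713 in the WT, 317, 989 and 372 in the *ecl3*Δ cultures and 453, 324 and 540 in *ecl123*Δ, so that the *ecl123*Δ libraries were below the WT. *gal7* (SPBPB2B2.10c), for the uridylyltransferase, was at 404 to 435 in the WT and 420 to 535 in *ecl123*Δ, with overlap. The log2 differences of *ecl123*Δ were 0.50 for *gal1* (standard error 0.15, edgeR adjusted p = 0.121), -0.73 for *gal10* (0.38, 0.321) and 0.14 for *gal7* (0.13, 0.616). These neighbours thus did not share 1 direction, and none passed the test. *pan5*, next to *gal7*, had a log2 difference of 0.11 (standard error 0.08).

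The 5′-nucleotidase-like gene SPBPB2B2.06c, annotated as a phosphoprotein phosphatase in RefSeq, had 85.4, 57.3 and 52.0 normalized reads in the WT, 83.9, 26.7 and 84.6 in the *ecl3*Δ cultures and 113, 55.0 and 104 in *ecl123*Δ. The strains overlapped, with a log2 difference of 0.49 (standard error 0.43, edgeR adjusted p = 0.6). Its relative SPAC1039.02, whose protein was 84.03% identical and which lies outside these clones, had 2371 ± 150 normalized reads (SD, n = 3) in the WT against 7550 ± 1019 in *ecl123*Δ. That gene rose, by 1.67 on the log2 scale (standard error 0.27, edgeR adjusted p = 0.034). SPBPB10D8.01, a cysteine transporter gene, had 598, 467 and 387 in the WT and 794, 565 and 825 in *ecl123*Δ, a log2 difference of 0.59 (standard error 0.28, adjusted p = 0.282). Its relative SPCPB1C11.03 (63.79% identical) rose, by 1.48 on the log2 scale (standard error 0.27, edgeR adjusted p = 0.0423). Whether the changes of such relatives differ from those of the genes of these clones was not tested.

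The helicase genes had few reads. *tlh2* (SPBCPT2R1.08c), the outermost gene of the right end of chromosome II, had 8.65, 29.3 and 72.9 normalized reads in the WT, 27.1, 22.6 and 53.7 in the *ecl3*Δ cultures and 54.2, 77.9 and 218 in *ecl123*Δ. The WT and *ecl123*Δ overlapped, and the log2 difference of 1.62 had a standard error of 0.70 and an edgeR adjusted p of 0.237. *tlh1* (SPAC212.11) had counts of 0, 1 and 1 in the WT, 1, 1 and 0 in the *ecl3*Δ cultures and 3, 8 and 9 in *ecl123*Δ, and was not tested. The aligned protein sequences of the pair were 100% identical, and 93.2% of the windows of *tlh2* were repeated. The sum of both gave a log2 difference of 1.68 (adjusted p = 0.216).

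Other outer genes were near the limit of detection. SPAC212.02 had 4.32, 24.4 and 10.4 normalized reads in the WT, 1.64, 35.9 and 2.29 in the *ecl3*Δ cultures and 0 in all 3 *ecl123*Δ libraries. With a floor of 3 counts over the *ecl123*Δ group it was at least 12.8-fold lower than in the WT, which covers counting error only, and its edgeR adjusted p was 0.196. SPBCPT2R1.04c had counts of 20, 23 and 15 in the WT, 26, 21 and 16 in the *ecl3*Δ cultures and 13, 0 and 5 in *ecl123*Δ, below every WT library, while its normalized read counts overlapped. SPBPB10D8.07c, the copy with most change in its clone, had 0 to 10.4 normalized reads in the WT and 1.94 to 30.9 in *ecl123*Δ. At the outer end of chromosome I, SPAC212.04c was steady at 120, 132 and 158 in the WT and 110, 102 and 159 in *ecl123*Δ. On SPBC1348, 12 of the 14 genes did not pass the low-count filter. The transcription factor gene SPBC1348.12 had 206 to 218 normalized reads in the WT and 143 to 259 in *ecl123*Δ, and the hexose transporter gene *ght7* had 15.9 to 33.5 and 14.9 to 31.9. In both genes the strains overlapped.

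In *ecl3*Δ against the WT, 0 of the 55 genes were called by edgeR in either direction, beside 0% of all genes tested. DESeq2 also called 0, and 1 gene, SPAC186.02c, passed its adjusted p with the limits on fold and level left out. At an unadjusted p under 0.05 in edgeR, 2 genes were higher (SPBPB2B2.05 and SPBPB2B2.08) and 2 lower (*ftm2* and SPAC186.02c), beside 0.847% and 0.767% of all genes. The groups did not overlap for 2 higher and 4 lower genes, beside 4.03% and 5.5%. The 2-fold difference and the limit on level left 0 higher and 1 lower, *ftm2*, beside 0% and 0.016%. SPAC186.02c, a hydroxyacid dehydrogenase gene chosen after its values were seen, had 23.8, 37.8 and 43.2 normalized reads in the WT, 1.64 to 10.3 in the *ecl3*Δ cultures and 21.3, 45.8 and 25.1 in *ecl123*Δ. It was thus lower in the single mutant than in both other strains, with a log2 difference to the WT of -2.98 (standard error 0.68, edgeR adjusted p = 1.00).

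Between the mutants, 0 of the 55 genes were called by edgeR, where 0.0479% of all genes were called higher in *ecl123*Δ and 0% lower. Without the limits on fold and level it was also 0 of the 55, beside 0.0639% and 0% of all genes. DESeq2 called SPAC977.18 as lower in *ecl123*Δ. At an unadjusted p under 0.05 in edgeR, 11 genes were higher in *ecl123*Δ and 10 lower, beside 6.15% and 4.54% of all genes. The groups did not overlap for 9 higher and 6 lower genes, beside 7.42% and 4.22%. With a 2-fold difference and the limit on level added, 2 were higher, *tlh2* and SPBPB2B2.05, and 0 lower, beside 0.368% and 0.208%. This comparison and that of *ecl123*Δ with the WT share the *ecl123*Δ libraries.

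The *ecl3*Δ cultures did not stand in 1 place relative to the WT. For the 9 genes that were at least 2-fold apart between the WT and *ecl123*Δ without overlap, *ecl3*Δ replicates 1 and 3 lay beyond the WT range on the side of *ecl123*Δ in 9 of 9. *ecl3*Δ replicate 2 did so in 2, was inside the WT range in 4 and lay beyond it on the other side in 3. Over all 137 genes chosen in the same way, replicate 1 lay on the side of *ecl123*Δ in 92.7%. The share was 6.57% for replicate 2 and 89.8% for replicate 3. The 9 genes are among these 137 and followed the pattern of that set, and other genes were not examined for it. Of the 9 genes, the 3 on the other side in replicate 2 were *cmt2*, SPBPB21E7.08 and SPAC977.18. The last had 1922 normalized reads in *ecl3*Δ replicate 2 against 1880 in the highest WT library. The source of this difference between cultures of 1 strain was not tested.

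A second kind of variation followed neither strain nor that pattern. Near the right end of chromosome I, *gdt1* (SPAC186.05c), for a GDT1-like membrane protein, had 868, 6.10 and 33.6 normalized reads in the WT, 1289, 2067 and 70.8 in the *ecl3*Δ cultures and 910, 34.4 and 47.3 in *ecl123*Δ. It was high in WT replicate 1, *ecl3*Δ replicates 1 and 2 and *ecl123*Δ replicate 1, and low in the other 5 cultures. The SD of its log2 CPM was 3.45 in the WT, 2.61 in the *ecl3*Δ cultures and 2.57 in *ecl123*Δ, which ranked 1, 4 and 1 among the 5541 genes with 100 or more normalized reads on average. Its neighbours on both sides moved with it: SPAC186.06, annotated as an isomerase, had counts of 85, 0 and 5 in the WT, 161, 194 and 8 in the *ecl3*Δ cultures and 116, 2 and 4 in *ecl123*Δ. On the other side, SPAC186.04c had normalized read counts of 34.6, 9.75 and 1.60 in the WT, 54.3, 108 and 14.9 in the *ecl3*Δ cultures and 48.4, 6.87 and 0 in *ecl123*Δ. *gdt1* and its neighbours were chosen after their values were seen, and none of the 3 had repeated windows.

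**Figure D5:**
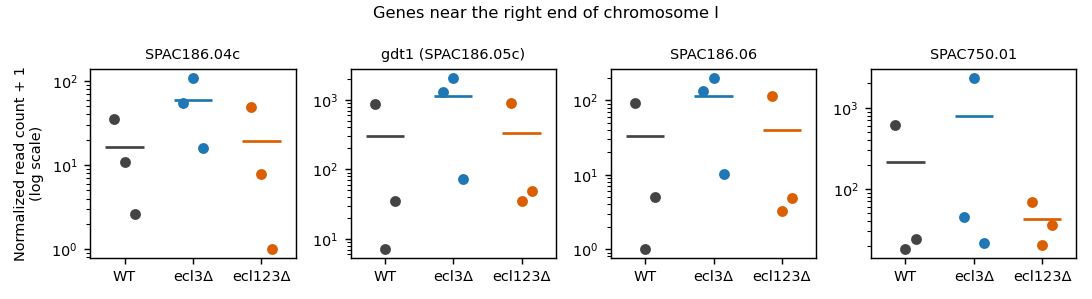
Points are single libraries, drawn in the order of replicates 1 to 3 within a strain, and bars are strain means of the normalized read count plus 1 (y axis, log scale) for 4 genes near the right end of chromosome I. *gdt1* and its neighbours SPAC186.04c and SPAC186.06 were high in the same 4 cultures, and SPAC750.01 was high in WT replicate 1 and *ecl3*Δ replicate 2.

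Nearer the end, SPAC750.01, an aldo/keto reductase family gene, had 610, 17.1 and 23.2 normalized reads in the WT, 44.4, 2336 and 20.6 in the *ecl3*Δ cultures and 68.7, 19.5 and 34.8 in *ecl123*Δ. It was high in WT replicate 1 and *ecl3*Δ replicate 2 and low in the other 7 cultures, and its SD of log2 CPM in *ecl3*Δ, 3.60, ranked 1 among the 5541 genes. Its protein was 94.46% identical to that of SPAC977.14c and it shared 32.5% of its windows with that gene, whose level was 23904 to 36533 normalized reads over the 9 libraries. The DIPSY glycoprotein gene *pfl9* (SPAC186.01) had 370, 742 and 604 in the WT, 313, 255 and 575 in the *ecl3*Δ cultures and 281, 451 and 345 in *ecl123*Δ, with overlapping strains. With a log2 difference of -0.67 (standard error 0.34, edgeR adjusted p = 0.305) in *ecl123*Δ, it had the widest difference of the tested genes of SPAC186. The differences of *gdt1* and SPAC750.01 between *ecl123*Δ and the WT, 0.14 and -2.37 on the log2 scale, had standard errors of 1.59 and 1.78.

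Between cultures of 1 strain the genes of these clones varied more than most. Among the 35 of them with 100 or more normalized reads on average, the median SD of log2 CPM was 0.18 in the WT against 0.07 over all 5541 genes, 0.27 against 0.10 in *ecl3*Δ and 0.32 against 0.20 in *ecl123*Δ. The top 5% of genes by SD held 11 (31.4%) of the 35 for the WT cultures, 16 (45.7%) for *ecl3*Δ and 7 (20.0%) for *ecl123*Δ. These shares are a description and were not tested. The 35 genes were not matched by level to the 5541, and how far low counts raised their SD was not tested.

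In the gene lists, genes were counted by the adjusted p alone, without the limits on fold and level. Over all genes tested, 0.607% were higher and 0.575% lower by this criterion in *ecl123*Δ against the WT. Of 34 tested genes for heterochromatin and telomere proteins, 0 passed the adjusted p in edgeR in any of the 3 comparisons. At an unadjusted p under 0.05 in *ecl123*Δ against the WT, 1 was higher (*clr2*) and 3 were lower (*poz1*, *mst2* and *hst4*), beside 10.2% and 9.7% of all genes. The median log2 difference of the list was -0.01, against 0.00 for all genes tested. The *swi6* gene, for the heterochromatin protein that binds methylated histone H3, had 4231, 4427 and 4542 normalized reads in the WT and 4351, 4502 and 3898 in *ecl123*Δ. Of the 6 galactose and UDP-galactose genes, 1 passed as lower, *uge1*, a UDP-glucose 4-epimerase gene outside these clones, which was under 2-fold apart. It fell from 13974 ± 553 (SD, n = 3) to 7251 ± 341 (log2 fold change -0.95, standard error 0.16, edgeR adjusted p = 0.0401). No gene of this list passed as higher. At an unadjusted p under 0.05 in edgeR, 1 was higher (*gal1*) and 2 were lower (*uge1* and *gms1*), beside 10.2% and 9.7% of all genes. The protein of *uge1* was 58.07% identical to the aligned part of Gal10. Of the 8 tested genes for DIPSY flocculins, 1 passed as higher, *pfl8*, also under 2-fold apart. It went from 254 ± 14.4 to 474 ± 34.8 (log2 fold change 0.90, standard error 0.17, edgeR adjusted p = 0.0423), and *pfl6* (SPAC977.07c), with at most 17 counts in a library, was not tested. Of the 7 *ftm* genes, 2 were tested and 1, *ftm2*, passed as lower. The last list held 32 tested genes outside these clones, each with a protein at least 50% identical to one encoded in them. Of these, 2 passed as higher, SPAC1039.02 and SPCPB1C11.03, and 1 as lower, *uge1*. Whether genes of this list also lie near chromosome ends was not examined.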

How the data were processed

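The authors prepared stranded poly(A)+ libraries, mapped paired-end reads with HISAT2 2.1.0 to the build ASM294v2 and counted them with HTSeq 0.10.0, and deposited whole-number counts per gene, not normalized. Their DESeq2 tables hold their own comparisons and were not used. The number of unused per-sample columns was 0. Gene names (6836 of 6988 matched), gene order, protein identity and repeated 51-base exon windows came from RefSeq ASM294v3, another build, so no coordinates are given.

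Genes were kept with filterByExpr in edgeR 4.0.16 (R 4.3.3, limma 3.58.1), scaled by TMM and tested by quasi-likelihood, with the 9 libraries fitted together and adjustment over 6257 genes. Groups came from the labels. The functions were tested on simulated data. Standard errors came from the fitted weights, and normalized read counts are counts scaled to a common effective library size. A pair of genes counted as copies where they shared more than 50% of windows.

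Genes were named if called or past the adjusted p, if at least 2-fold apart without overlap, if highest or most changed in a clone, if most variable in *ecl3*Δ (3 genes), or if *tlh*, *ftm*, galactose, flocculin or paper-named genes or copies of a called gene; exceptions are stated. The genes and lists were chosen with earlier results of these data known.

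The alternatives were DESeq2 1.42.0, RLE factors, library size alone, a limit of 1.5-fold, no minimum level, no filter on low counts, only the 2 strains compared, the replicate number as a block, copies summed, and each library left out in turn.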

Additional observations from a re-analysis of the deposited data

How the results depend on the processing

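Of 4 called genes in *ecl123*Δ against the WT, DESeq2 gave 8, a fit of only the 2 strains 9, and leaving out 1 library gave 0 to 9. Past the adjusted p alone, the 4 genes became 14 with DESeq2, 12 with only the 2 strains and 0 to 15 with 1 library left out. In *ecl3*Δ against the WT, DESeq2 put 1 gene past the adjusted p. Between the mutants, DESeq2 called 1 gene and put 9 past the adjusted p, and leaving out 1 library gave 0 to 1 and 0 to 2, the higher values without *ecl123*Δ replicate 2. Apart from the replicate block, given next, the other alternatives left these counts within 1.5 times. Of the log2 fold changes of named genes under the alternatives, 1226 kept their side of the threshold, 43 passed it newly, 21 lost it and 0 called values reversed. The share of all genes passing under each alternative, the replicate block included, was not counted. The cause of these shifts was not tested.

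The replicate numbers did not pair the libraries: 3 of 9 same-numbered pairs had a correlation of deviations over 0.1 (range -0.18 to 0.22), and 2 of 9 libraries matched best with their own number. With the replicate block, 7 genes were called in *ecl123*Δ against the WT, and 7 passed the adjusted p alone.

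With 3 cultures per strain and 63 genes mostly of repeated sequence, differences under about the spread between cultures were not detectable.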
